A study of Mus musculus with 16 samples.

Results

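The comparison described here is that of CD103-positive ICOS-positive regulatory T cells (Treg) after a suppression assay with the same kind of cell taken fresh from lymph nodes. The members are the arrays whose sample titles name both markers as positive, 2 of activated and 2 of fresh cells, which is 4 of the 16 arrays in the series. The other 12 arrays hold the double-negative, CD103 single-positive and ICOS single-positive subsets, again fresh and activated with 2 arrays each. The question the comparison addresses is what stimulation in the assay added in cells that already had an effector surface type when they were sorted.

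The cells came from female wild-type C57BL/6 mice aged 8 to 12 weeks. Mesenteric and para-aortic lymph nodes were pooled with those of the neck (cervical), armpit (axillary and brachial) and groin (inguinal), and the number of mice per sample is not given in the sources used here. Fresh cells went straight from the sort to RNA and were never cultured, so time in culture and stimulation cannot be told apart in this design. For the activated group 200000 Treg were kept for 3 days with 1000000 naive CD4 T cells of the Ly5.1 congenic type, 2000000 irradiated splenocytes from Rag2-/- mice and soluble anti-CD3 at 0.5 ug/ml. The Treg were recovered from this mixture as Ly5.1-negative cells with CD4 and CD25 on their surface. Neither CD103, ICOS nor Foxp3 was part of that second sort, and how many of the recovered cells still carried CD103 and ICOS is not given in the sources used here. Each array was hybridised with material from 270 ng of RNA, and replicates 1 and 2 are labelled biological replicates.

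Treg are CD4 T cells that carry the transcription factor Foxp3 and hold other immune cells in check. CD103, the integrin alpha chain encoded by Itgae, pairs with integrin beta 7 and binds E-cadherin on epithelia, and ICOS is a costimulatory receptor of the CD28 family. Treg that carry such markers are often called effector Treg, since they express more inhibitory receptors, interleukin 10 and granzymes than resting Treg, and many of them divide in the animal. When a T cell is stimulated through its antigen receptor it grows, switches to glycolysis, makes lipid and nucleotides, divides and may secrete cytokines, and it changes the receptors that guide its homing.

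Values are log2 signals per gene as the submitters normalized them, from 1 probe set per gene and 19938 genes, and a difference of 1 is a factor of 2. The array medians ran from 6.26 to 6.48, and a gene near or below that level in the fresh cells has a fold that understates the change, because array signal includes background. The sort labels held in the double-positive arrays. Itgae read 12.33 and 12.37 in fresh and 11.18 and 11.08 in activated cells, Icos lay between 12.87 and 13.31, and Foxp3 between 12.29 and 12.84. In the fresh double-negative cells Itgae was 7.81 and 7.25 and Icos 10.59 and 10.40. An array of another subset stood apart from its partner. Replicate 2 of activated ICOS single-positive cells had Foxp3 at 8.53, against 11.69 to 12.84 on the other 15 arrays, and differed by more than 2-fold from its partner in 685 genes, against 24 to 413 in the other 7 groups. This low-Foxp3 array enters the double-positive comparison through the estimate of the error, and values without it are given beside the results it moves most. The paired arrays of the 2 double-positive groups differed by more than 2-fold in 81 genes (fresh) and 167 genes (activated), and in 149 of the latter the second replicate was the lower.

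Of 19938 genes, 1069 (5.36%) rose and 1734 (8.7%) fell after the assay in double-positive cells, together 14.1% (limma, adjusted p under 0.05 over all genes, n = 2 arrays per group). Among them 488 rose and 615 fell by more than 2-fold, and 123 rose and 82 fell by more than 4-fold. The rises thus reached further and the falls were more numerous. The median over all genes was a difference of 0.039. Both activated arrays lay above both fresh arrays for 31.3% of genes and below them for 24.8%, which is far more than the test called, so a lack of overlap with 2 arrays a side says little for a single gene. With the low-Foxp3 array left out, 1119 genes rose and 1829 fell, and 2674 of the 2803 original calls were among them. The double-positive counts of the 34 gene lists below then moved by at most 1 gene in either direction, with some exceptions. These were the effector Treg, homing, helper lineage and common-chain receptor lists. The counts of all but the last of these are given both ways. Leaving out 1 double-positive array, so that the remaining array of its group is assumed to vary like the other groups, left 1579 calls without fresh replicate 1 and 1362 without fresh replicate 2. It left 2125 without activated replicate 1 and 1405 without activated replicate 2.

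**Figure D1:**
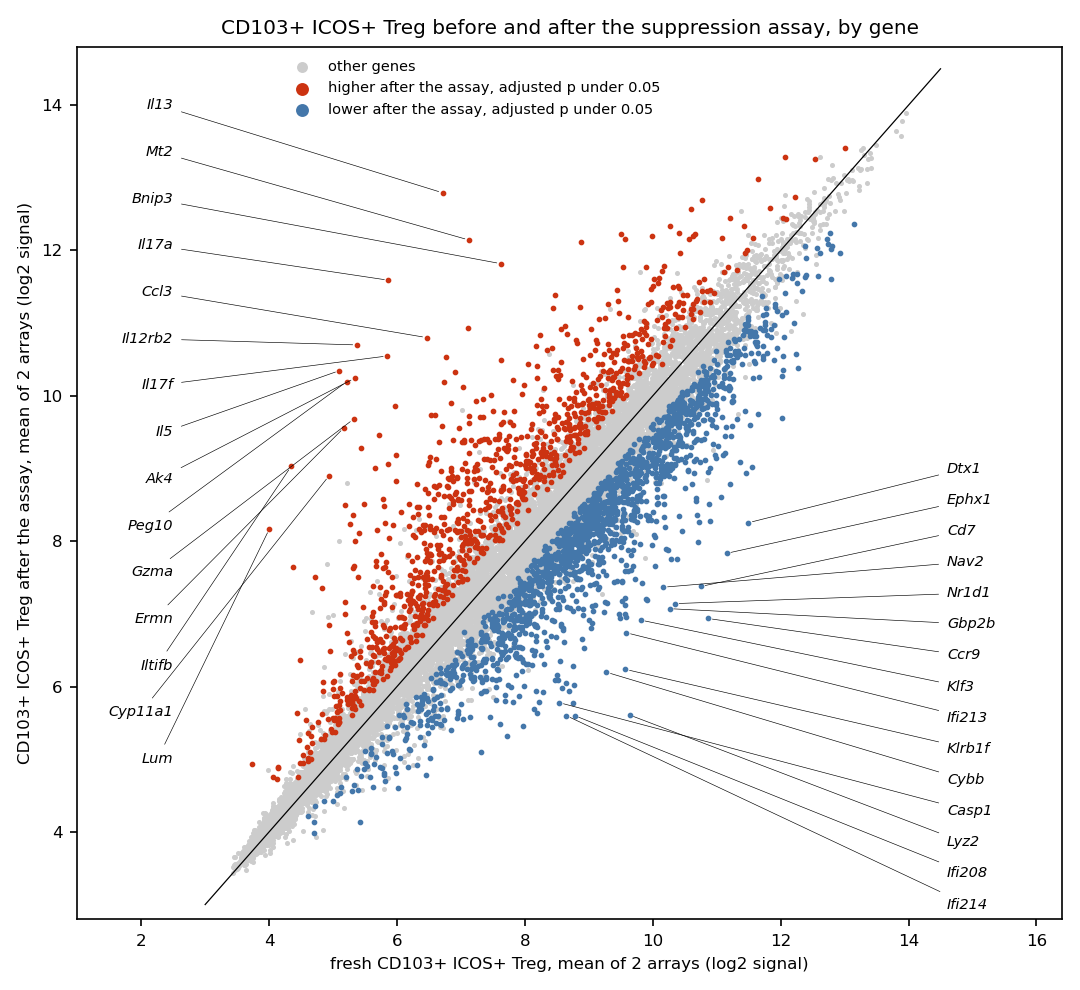
Mean log2 signal of each of 19938 genes in fresh (horizontal) and activated (vertical) double-positive Treg, 2 arrays each; grey, genes that did not pass; colours, the 1069 genes that rose and the 1734 that fell at limma adjusted p under 0.05. The named genes that lie furthest above the diagonal are cytokines such as Il13 and Il17a, and the furthest below it are Lyz2 and Ccr9.

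Cytokine genes made the largest rises. Il13 (the type 2 cytokine interleukin 13) had log2 signals of 6.78 and 6.64 on the fresh arrays and 13.16 and 12.43 on the activated arrays. That is a difference of 6.08 (SE 1.15, 67.6-fold, adjusted p = 0.00554), from about the array median to near the top of the scale. Il17a (interleukin 17A, the signature cytokine of Th17 cells) read 5.82 and 5.92 in fresh cells and 11.62 and 11.56 in activated cells, a rise of 5.72 (SE 0.97, adjusted p = 0.00303). The fresh values of both genes are those of dim probe sets, and the activated values of each gene were far apart from them. Il5, another type 2 cytokine that drives eosinophils, went from 5.15 and 5.05 to 11.41 and 9.29, a rise of 5.25 (SE 1.04, adjusted p = 0.00722). Here the activated replicates were themselves more than 4-fold apart, and without activated replicate 1 the adjusted p was 0.0567. Il17f, the close relative of Il17a, went from 5.92 and 5.78 to 10.87 and 10.23 (difference 4.70, SE 0.69, adjusted p = 0.00141). Iltifb went from 4.12 and 4.57 to 9.18 and 8.88 (difference 4.69, adjusted p = 0.00196). Iltifb is a near-identical copy of Il22, so which of the copies gave this signal is uncertain.

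Of the 29 cytokine and chemokine genes listed and measured, 11 rose and 3 fell (background 5.36% and 8.7%), with a median difference of 1.11 against 0.039 over all genes. The chemokine Ccl3, which attracts monocytes and T cells, rose from 6.63 and 6.29 to 10.64 and 10.96. Lif, a cytokine of the interleukin 6 family, rose from 6.28 and 5.66 to 10.11 and 9.61 with a small error (difference 3.89, SE 0.22, adjusted p = 8.09e-06). Csf2, which encodes GM-CSF, rose from 5.23 and 5.30 to 8.65 and 7.83 (difference 2.98, adjusted p = 0.00212). Il3, a growth factor of myeloid cells, rose by 3.27 with activated values of 8.99 and 6.31, and Il4, the type 2 helper cytokine, by 1.35 with values of 7.66 and 6.28 (adjusted p = 0.00529 and 0.0245). Il24 and Osm, 2 cytokines that act on epithelial and stromal cells among others, rose by 2.52 and 1.15. Replicate 1 was the higher for each of these genes except Ccl3. Several cytokines did not pass. Il9 read 10.97 and 6.64 after the assay against 5.31 and 5.13 before it, a difference of 3.58 with an SE of 1.59 (adjusted p = 0.178). Il2 read 8.16 and 5.91 against 6.10 and 6.01 (adjusted p = 0.26), and Ifng 8.27 and 7.96 against 6.95 and 7.06 (adjusted p = 0.407). Ltb, Tnfsf14 and Ccl5, which encode lymphotoxin beta, LIGHT and RANTES, fell by 0.86, 1.14 and 1.15.

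**Figure D2:**
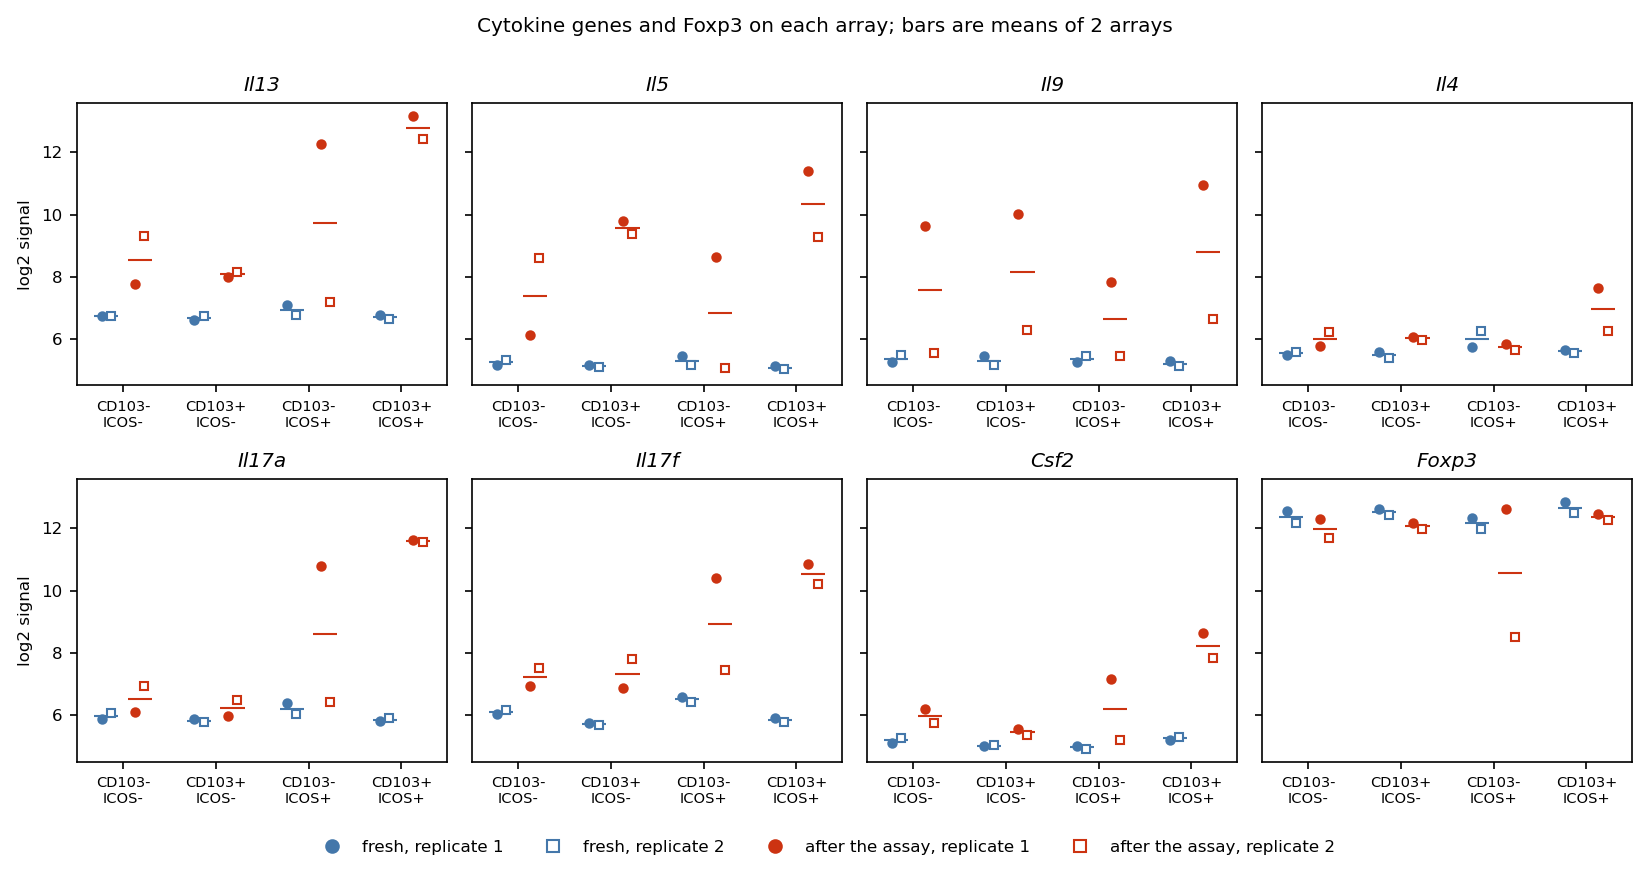
Log2 signal of 7 cytokine genes and Foxp3 on each array (filled circle replicate 1, open square replicate 2), by subset, fresh and after the assay; bars are means of 2 arrays. After the assay the double-positive arrays lie between 10.23 and 13.16 for Il13, Il17a and Il17f, and the 2 activated ICOS single-positive arrays are far apart for several of the genes.

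The other subsets varied by cytokine. Il5 differed between activated and fresh cells by 4.44 in CD103 single-positive cells against 5.25 in double-positive cells (difference between the changes 0.81, adjusted p = 0.931). Il17a differed between activated and fresh cells by 0.54 in double-negative, 0.40 in CD103 single-positive and 2.39 in ICOS single-positive cells, and Il13 by 1.79, 1.41 and 2.79. The 2 activated ICOS single-positive arrays were far apart, at 10.80 and 6.42 for Il17a and 12.27 and 7.21 for Il13, and replicate 1 lay near the double-positive level. With all 16 arrays the difference between these changes and that of the double-positive cells passed for neither gene (for Il17a adjusted p = 0.143, 0.165 and 0.352, for Il13 0.341, 0.42 and 0.48). Without the low-Foxp3 array, which leaves 1 activated ICOS single-positive array, the double-positive rise of Il17a exceeded the double-negative one by 5.18 (adjusted p = 0.000287) and the CD103 single-positive one by 5.32 (adjusted p = 0.000249). For Il13 the excess was 4.28 (adjusted p = 0.00466) and 4.67 (adjusted p = 0.004). Csf2 and Il17f passed against both of these subsets too. Against ICOS single-positive cells neither Il17a (1.15, adjusted p = 0.313) nor Il13 (0.76, adjusted p = 0.804) passed, and a p that misses the threshold does not show that these 2 subsets respond alike. Ccl3 rose in the other subsets too, by 5.08, 3.96 and 4.56.

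Markers of activated conventional CD4 T cells moved with the cytokines. The assay wells held such cells, and the re-sort gated on cells without the congenic marker of those added. Its purity is not given in the sources used here. Of 10 listed marker genes 4 rose (Il17a, Il3, Csf2 and Il4, all of them cytokines counted above), and the mean of the list was 6.57 and 6.53 on the fresh and 8.67 and 7.68 on the activated arrays. Foxp3 read 12.84 and 12.50 before and 12.45 and 12.29 after the assay. The share of the cytokine transcripts from cells other than Treg was not tested. In bulk RNA a change in the number of cells of a type and a change in the RNA per cell cannot be told apart, here and for every gene that follows.

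The Il17a promoter is shown because this gene had the second largest rise and holds the letters TGANTCA, searched for AP-1. AP-1 is a factor pair induced by antigen receptor signals, and its usual site has C or G as the middle base. The search left that base free, and the match here, TGAATCA, has an A. The stretch shown is the 250 bases before the start site, at chr1:20730655-20730904 (plus strand) in RefSeq's GRCm38.p6 annotation. It is written 5′ to 3′ on the gene's strand, and capitals mark the searched letters.
Il17a: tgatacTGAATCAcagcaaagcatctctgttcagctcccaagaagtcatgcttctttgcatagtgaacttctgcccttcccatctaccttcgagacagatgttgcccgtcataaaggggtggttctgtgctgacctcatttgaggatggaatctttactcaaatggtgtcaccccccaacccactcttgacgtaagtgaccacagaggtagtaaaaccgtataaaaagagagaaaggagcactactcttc
Searched on both strands in windows from 250 bases before to 50 after the start, these letters occur in 7.9% of all 27025 promoters of the table. They occur in 5 of the 25 listed cytokine genes with a promoter in it (20.0%), in none of the 16 immediate early genes and in 6.0% of the genes that rose, beside 7.0% of all genes tested. A match of letters is a description and not a measured binding site.

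Beyond cytokines, Il12rb2, the signalling chain of the interleukin 12 receptor, had log2 signals of 5.28 and 5.46 in fresh and 10.18 and 11.22 in activated cells. The difference was 5.33 (SE 0.50, adjusted p = 0.000114), and the gene also rose by 5.90, 6.63 and 3.78 (background 8.65%, 10.2% and 1.03% higher) in double-negative, CD103 single-positive and ICOS single-positive cells. Peg10, an imprinted gene derived from a retrotransposon, went from 5.20 and 5.22 to 10.32 and 10.07 (difference 4.98, adjusted p = 0.000556), beside differences of 0.73, 1.38 and 1.60 in the other subsets. Its rise exceeded the double-negative change by 4.25 (adjusted p = 0.0525, and 0.00126 without the low-Foxp3 array). Gzma, which encodes the protease granzyme A of cytotoxic granules, went from 5.29 and 5.36 to 9.44 and 9.92 (difference 4.36, SE 1.0, adjusted p = 0.0146). The metallothioneins, small proteins that bind zinc and other metals, rose together. Mt2 rose from 7.39 and 6.86 to 12.38 and 11.91, and Mt1 from 7.22 and 6.99 to 11.04 and 10.82. Ak4, a mitochondrial adenylate kinase, rose by 4.90 (adjusted p = 0.00016), Ermn, a protein best known from myelinating cells, by 4.39, and Cyp11a1, the enzyme that starts steroid synthesis from cholesterol, by 3.96 (adjusted p = 0.000699). Cyp11a1 rose in the other subsets as well by 5.20, 5.48 and 2.59.

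Most of the effector Treg genes were already high in fresh double-positive cells and did not pass in either direction. The mean log2 signal of the 27 measured genes of the effector Treg list was 10.88 and 10.94 on the fresh and 10.88 and 10.89 on the activated arrays. In double-negative cells the same mean went from 8.06 and 7.68 to 9.16 and 9.89. The list holds Itgae and Icos, on which the fresh subsets were sorted. Their fresh levels were set by the sort and enter these means. The list counts were 4 higher and 3 lower in double-positive cells (background 5.36% and 8.7%), with a median difference of -0.09. In double-negative cells they were 12 higher and none lower (background 8.65% and 7.59%), with a median of 1.73. Tigit, an inhibitory receptor, read 12.14 and 11.92 before and 12.13 and 11.91 after the assay, and Prdm1, which encodes the effector factor Blimp-1, 10.70 and 10.89 before and 10.68 and 10.74 after it. Havcr2, which encodes TIM-3, read 10.21 and 9.97 against 10.29 and 10.17. The fresh and activated values of all 3 genes overlapped, with differences of -0.01, -0.09 and 0.13 (adjusted p = 0.996, 0.97 and 0.944). Il10 was 9.82 and 9.12 before and 10.02 and 10.50 after the assay (adjusted p = 0.74), and Gzmb, the cytotoxic protease granzyme B, 11.29 and 11.48 before and 12.39 and 12.70 after it (adjusted p = 0.548).

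A few effector genes moved. Tnfrsf8, which encodes the TNF receptor CD30, rose from 9.10 and 8.66 to 12.00 and 12.24 (difference 3.24, SE 0.80, adjusted p = 0.0211). Tnfrsf9, which encodes the costimulatory receptor 4-1BB, rose from 11.60 and 11.70 to 13.02 and 12.95, and the transcription factors Nfil3 and Batf rose by 1.92 and 1.11. The genes that fell were Cxcr3, a receptor for inflammatory chemokines, from 10.40 and 10.95 to 8.38 and 8.73, S100a4, a calcium-binding protein of motile cells, from 10.14 and 10.33 to 7.75 and 8.01, and Fgl2, a secreted suppressive protein, by 2.31. Itgae itself differed by -1.22 and did not pass with all arrays (adjusted p = 0.392). Its activated arrays lay below both fresh arrays, as for 24.8% of all genes. With the low-Foxp3 array left out, Itgae passed (adjusted p = 0.00605), as did Klrg1, a receptor of terminally differentiated cells, at -1.07 (adjusted p = 0.00293), and the chemokine receptor Ccr8 at 0.85 (adjusted p = 0.00137). The list then counted 5 higher and 5 lower. The change of Ccr8 minus that in double-negative cells was -2.36 and that of Lag3, an inhibitory receptor, -1.80, and these were the 2 list members whose change passed as different between these subsets with all arrays (background 0.968%). Without the low-Foxp3 array 7 of the 27 passed, all in this direction, Tigit among them (-2.55, adjusted p = 0.0372).

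A second, broader set, called the effector reference genes here, came from arrays that hold no double-positive cell. The name stands for how the set was picked. Whether its genes form an effector programme was not tested. In fresh ICOS single-positive cells 479 genes (2.4%) were higher and 182 (0.913%) lower than in fresh double-negative cells. Of the 479, 237 (49.5%) rose and 61 (12.7%) fell after the assay in double-positive cells, with a median of 0.66, beside 5.4% and 8.7% of all genes. In CD103 single-positive cells, in which 20.2% of all genes were called in either direction, 330 of them (68.9%) rose and 35 (7.3%) fell. Of the 182 genes, 80 (44.0%) fell and 6 (3.3%) rose in double-positive cells. The 479 hold 24 of the 25 mitosis genes and 27 of the 30 DNA replication genes described next. Without these lists 189 of 428 (44.2%) rose, and cell-cycle genes outside the lists were not removed. Both reference sets were picked in the same fit, whose error per gene also enters the double-positive test. Genes with a small error pass more readily in both, so the share of all genes is not a matched background. The count of 237 was 127 without fresh ICOS single-positive replicate 2 and 146 without fresh double-negative replicate 2, since fewer genes then enter the set.

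**Figure D3:**
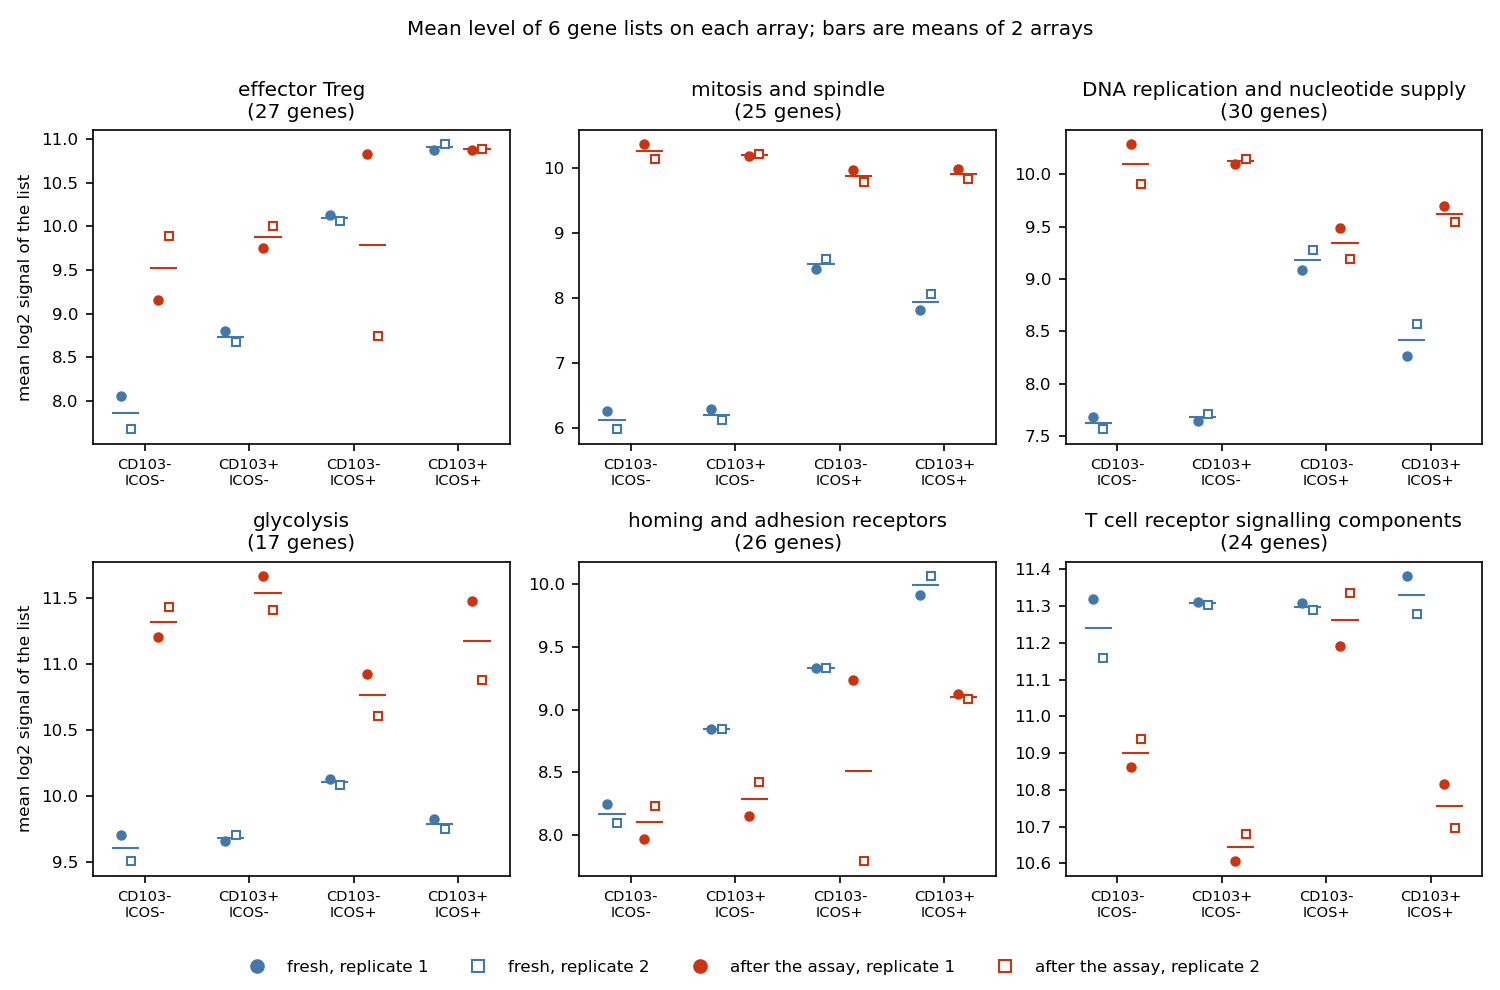
Mean log2 signal of 6 gene lists on each array, by subset, fresh and after the assay; points are arrays (filled circle replicate 1, open square replicate 2) and bars the means of 2 arrays. The effector list mean is the same before and after the assay in double-positive cells (10.88 and 10.94 against 10.88 and 10.89), the cell-cycle and glycolysis lists rise, and the homing and receptor signalling lists fall.

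All 25 measured genes of mitosis and the spindle rose after the assay in double-positive cells, from a starting level above that of the ICOS-negative subsets. Bub1, a kinase of the spindle checkpoint, went from 7.25 and 7.67 to 10.20 and 9.81 (difference 2.55, SE 0.28, adjusted p = 0.00029). Cdk1, the kinase that drives entry into mitosis, went from 8.24 and 8.44 to 10.78 and 10.49 (difference 2.29, SE 0.12, adjusted p = 8.09e-06). Mki67, the proliferation marker Ki-67, went from 10.28 and 10.51 to 11.51 and 11.50, a rise of 1.11 (SE 0.21, adjusted p = 0.0053). Every activated array lay above both fresh arrays for these genes, as for 31.3% of all genes. The median rise of the list was 1.97, and the list mean went from 7.81 and 8.06 to 9.98 and 9.83. In fresh double-negative cells the list mean was 6.26 and 5.98, and all 25 genes rose there with a median of 3.95.

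The rise of mitotic genes was smaller in double-positive cells than in either ICOS-negative subset. The difference between changes passed in the direction of a smaller double-positive rise for 20 of 25 genes against double-negative cells (background 0.853%) and for 19 of 25 against CD103 single-positive cells (background 0.632%). Mki67 rose by 1.11 against 5.11 in double-negative and 4.54 in CD103 single-positive cells, so the differences were -3.99 and -3.43. Ccna2, a cyclin of S phase and mitosis, rose from 9.36 and 9.52 to 11.51 and 11.40, by 2.02 against 5.51 and 5.56. Activated levels of the list were close in all subsets, between 9.78 and 10.36 on the 8 activated arrays. Against ICOS single-positive cells, whose fresh level was 8.44 and 8.59, 0 of 25 genes passed in limma (background 0.612%), and 12 had an unadjusted p under 0.05, all of them toward a larger double-positive rise.

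Genes of DNA replication and nucleotide supply rose as well, 25 of 30 with a median of 1.18 and none lower. Orc1, a subunit of the complex that marks replication origins, went from 5.64 and 6.00 to 7.70 and 7.58 (difference 1.82, adjusted p = 0.000518). Rrm2, the regulated subunit of ribonucleotide reductase, went from 9.03 and 9.49 to 11.06 and 11.08 (difference 1.81, adjusted p = 0.000731). The list mean went from 8.26 and 8.57 to 9.70 and 9.55. The rise was smaller than in double-negative cells for 9 genes and than in CD103 single-positive cells for 6, and larger than in ICOS single-positive cells for 3 (background 0.251%). With the low-Foxp3 array left out, that last count was 1. Among the inhibitors and p53 targets 4 of 16 rose and 2 fell (background 5.36% and 8.7%). Gadd45g, a stress-induced growth regulator, rose by 2.04 and the kinase inhibitors Cdkn2d, Cdkn2b and Cdkn2a by 1.41, 0.92 and 0.68, while Cdkn1b, which encodes the inhibitor p27, fell by 0.59.

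Promoters of the cell-cycle genes share short elements, and 3 of them are shown because the lists they belong to rose together. Mitotic genes often carry the CHR element (TTTGAA), and replication genes an E2F element (TTTNGCG). The bases before the start site are given for Mki67 at chr7:135716380-135716629 (minus strand), Top2a, the topoisomerase that untangles chromosomes, at chr11:99024190-99024439 (minus strand) and Orc1 at chr4:108579204-108579453 (plus strand), from RefSeq's GRCm38.p6 annotation. Capitals mark the CHR letters in Mki67 and Top2a and the E2F letters in Orc1, on either strand.
Mki67: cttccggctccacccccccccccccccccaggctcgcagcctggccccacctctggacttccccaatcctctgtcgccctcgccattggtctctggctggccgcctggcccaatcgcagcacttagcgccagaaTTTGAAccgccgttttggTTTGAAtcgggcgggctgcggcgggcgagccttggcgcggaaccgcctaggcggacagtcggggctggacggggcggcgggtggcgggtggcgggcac
Top2a: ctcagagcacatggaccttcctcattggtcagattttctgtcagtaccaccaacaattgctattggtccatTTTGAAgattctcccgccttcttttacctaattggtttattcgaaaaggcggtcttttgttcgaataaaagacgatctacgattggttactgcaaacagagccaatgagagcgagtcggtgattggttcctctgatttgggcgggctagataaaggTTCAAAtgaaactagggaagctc
Orc1: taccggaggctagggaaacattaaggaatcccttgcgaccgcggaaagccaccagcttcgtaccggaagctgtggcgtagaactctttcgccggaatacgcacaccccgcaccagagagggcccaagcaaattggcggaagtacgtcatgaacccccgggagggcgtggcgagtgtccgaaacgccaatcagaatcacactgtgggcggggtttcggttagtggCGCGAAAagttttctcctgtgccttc
The CHR letters occur in 15 of the 20 mitosis genes with a promoter in the table (75.0%), beside 18.1% of all promoters. The E2F letters occur in 9 of 25 replication genes (36%), beside 4.2%. No searched motif contains the letters of another. Top2a rose from 8.39 and 9.23 to 10.66 and 10.79, and by 3.18 log2 units less than in double-negative cells.

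Glycolysis followed, with 12 of 17 genes higher, none lower and a median of 1.24. Hk2, the inducible hexokinase that traps glucose in the cell, went from 6.51 and 6.56 to 9.84 and 9.64 (difference 3.20, SE 0.17, adjusted p = 8.09e-06). Slc2a1, the glucose transporter GLUT1, went from 10.52 and 10.01 to 12.62 and 12.06 (difference 2.08, adjusted p = 0.000993). The lactate exporter Slc16a3 rose by 2.92, triosephosphate isomerase Tpi1 by 2.60, phosphoglycerate kinase Pgk1 by 1.93, and lactate dehydrogenase Ldha by 0.71 from an already high 12.55 and 12.53. Both activated arrays lay above both fresh arrays for each of these genes, as they did for 31.3% of all genes. Replicate 1 was the higher activated array, with a list mean of 11.47 against 10.88 in replicate 2 and 9.83 and 9.75 in fresh cells. No glycolysis gene changed differently from double-negative or CD103 single-positive cells in limma (3 and 4 of 17 with an unadjusted p under 0.05), and Hk2 rose more than in ICOS single-positive cells, by 2.10.

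Of 15 genes of the hypoxia response 5 rose. Bnip3, a mitophagy receptor, went from 7.73 and 7.52 to 12.15 and 11.48 (difference 4.19, SE 0.44, adjusted p = 0.000206), and rose by 4.45, 4.47 and 2.33 in the other subsets. Vegfa, the vascular growth factor, went from 6.49 and 6.53 to 8.79 and 7.54 (adjusted p = 0.0122), with activated arrays that differed by more than 2-fold. Ndrg1, Egln1 and Mxi1 made up the rest. The promoters of Bnip3, at chr7:138909507-138909756 (minus strand), and Ldha, at chr7:46845554-46845803 (plus strand), are shown as members of 2 metabolic lists that hold the core letters ACGTG, which the hypoxia-inducible factors bind. The Ldha window is the first of 2 listed for the gene, and capitals mark these letters.
Bnip3: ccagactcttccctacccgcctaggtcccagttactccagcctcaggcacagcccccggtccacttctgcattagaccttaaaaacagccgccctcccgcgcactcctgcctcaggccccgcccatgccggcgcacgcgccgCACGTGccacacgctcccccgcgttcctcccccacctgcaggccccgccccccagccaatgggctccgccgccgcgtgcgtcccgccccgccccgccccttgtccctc
Ldha: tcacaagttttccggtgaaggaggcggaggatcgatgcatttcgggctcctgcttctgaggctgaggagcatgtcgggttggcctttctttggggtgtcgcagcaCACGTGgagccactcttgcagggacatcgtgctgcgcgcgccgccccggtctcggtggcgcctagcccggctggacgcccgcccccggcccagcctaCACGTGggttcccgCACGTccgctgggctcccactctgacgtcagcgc
The letters occur in 9 of the 16 glycolysis genes with a promoter in the table (56.2%) and in 8 of 12 hypoxia genes (66.7%), beside 19.7% of all promoters.

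Lipid synthesis genes formed another group that rose together, 21 of 25 with a median of 1.06 and none lower. Fads2, a desaturase of polyunsaturated fatty acids, went from 6.03 and 5.95 to 9.69 and 8.67 (difference 3.19, SE 0.36, adjusted p = 0.000308). Idi1, an enzyme of isoprenoid and cholesterol synthesis, went from 6.82 and 7.11 to 9.73 and 9.38 (difference 2.59, adjusted p = 7.8e-05), and Sqle, which makes squalene epoxide in the sterol pathway, from 7.09 and 7.01 to 9.55 and 9.18 (difference 2.31, adjusted p = 5.94e-05). Both activated arrays lay above both fresh arrays for all 3 genes, as for 31.3% of all genes. Scd1, the stearoyl-CoA desaturase, rose by 2.89, and the transcription factors of the pathway, Srebf1 and Srebf2, by 0.64 and 0.53. None of these genes changed differently from double-negative or CD103 single-positive cells in limma (2 and 6 of 25 with an unadjusted p under 0.05), and Acaca rose more than in ICOS single-positive cells by 1.19. The Idi1 promoter at chr13:8885356-8885605 (plus strand) is shown for its CCAAT boxes, the site of the factor NF-Y, which here read ATTGG in capitals because they lie on the other strand.
Idi1: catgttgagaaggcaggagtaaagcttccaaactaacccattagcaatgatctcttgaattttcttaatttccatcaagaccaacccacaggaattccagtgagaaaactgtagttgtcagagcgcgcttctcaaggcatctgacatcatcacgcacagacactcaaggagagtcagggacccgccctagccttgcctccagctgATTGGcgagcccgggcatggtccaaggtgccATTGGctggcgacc
CCAAT occurs in 15 of 18 lipid genes with a promoter in the table (83.3%), in 16 of the 20 mitosis genes (80.0%) and in 37.9% of all promoters. The letters TCACNCC of the sterol factor SREBP occur in 3 of the 18 (16.7%), beside 15.6% of all promoters.

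Other growth lists held some genes that rose, beside 5.36% of all genes higher and 8.7% lower. For amino acid transport and the serine-folate pathway the count was 8 of 19 higher, with a median of 0.66, led by asparagine synthetase Asns, from 7.11 and 7.45 to 9.82 and 8.93 (adjusted p = 0.00121). Proteasome subunits counted 6 of 25 higher, ribosome biogenesis 5 of 26, aminoacyl-tRNA synthetases 3 of 18, the mitochondrial respiratory chain 3 of 25 and heat shock proteins 2 of 19. None of these lists had a gene that fell, and their medians lay between 0.23 and 0.41. Where only 2 or 3 genes passed, the count says little about a list. The unfolded protein response counted 5 higher and 2 lower of 22, with the chaperone cofactors Sdf2l1 and Manf higher by 1.19 and 0.99. In the Bcl2 family and death receptor list 2 of 17 rose and 4 fell, among them Birc5 (survivin, which also acts in mitosis) by 1.98 and the survival protein Mcl1, which fell by 0.89. Lysosome and autophagy genes counted 2 higher and 2 lower of 22, near the shares over all genes. Suppression and cytolysis genes counted 1 higher (Gzma) and 3 lower (Fgl2, Nt5e and Gzmk) of 20.

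**Figure D4:**
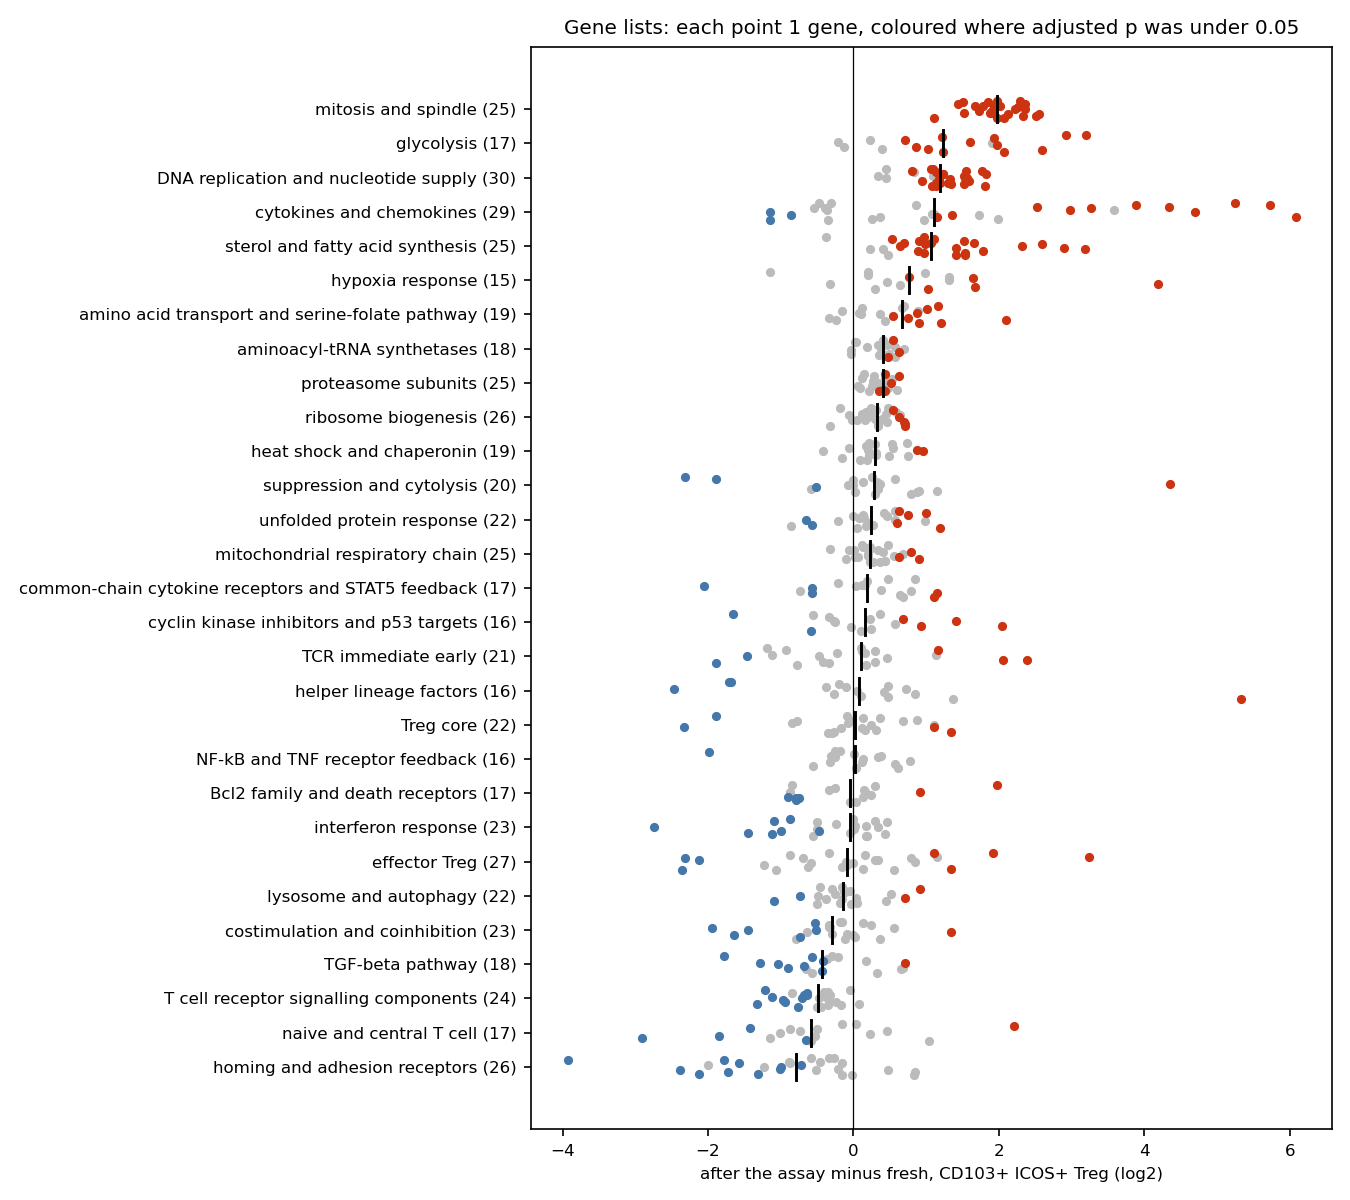
Activated minus fresh log2 difference of every measured gene (points) in each gene list in double-positive Treg; coloured points passed limma at adjusted p under 0.05 and vertical marks are list medians. All 25 mitosis genes and 21 of 25 lipid genes are higher, and 10 of 26 homing and 10 of 24 receptor signalling genes are lower.

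Homing receptors had the lowest median of the lists, -0.80, with 10 of 26 lower and none higher. Ccr9, the chemokine receptor that directs T cells to the small intestine, went from 10.84 and 10.89 to 6.87 and 7.0 (difference -3.93, SE 0.44, 15.3-fold, adjusted p = 0.000308). It fell in all 4 subsets, with differences of -3.50, -5.40 and -3.99 in the others. Itga4, the integrin alpha 4 chain used for entry into gut and inflamed tissue, went from 10.92 and 11.03 to 9.25 and 9.13 (difference -1.78, adjusted p = 0.000977). Ccr3, Cxcr3, Cxcr5 and Ccr10, all chemokine receptors, fell by 2.39, 2.12, 1.01 and 1.0, and the integrin chains Itga2, Itgb1 and Itga1 by 1.73, 1.31 and 0.72. Gcnt1, an enzyme that builds selectin ligands, fell by 1.58. S1pr1, the receptor for exit from lymph nodes, was 10.27 and 10.40 before and 10.22 and 10.13 after the assay (adjusted p = 0.609), beside a difference of -2.15 in double-negative cells (difference between the changes 1.99, adjusted p = 0.00262). Without the low-Foxp3 array 13 of the 26 genes fell and 1 rose.

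Components of antigen receptor signalling also fell, 10 of 24 with none higher and a median of -0.48. Fyn, a Src-family kinase, went from 11.54 and 11.59 to 10.42 and 10.07 (difference -1.32, SE 0.14, adjusted p = 0.000263). Rasgrp1, which links the receptor to Ras, went from 12.30 and 12.13 to 11.05 and 10.96, and the transcription factor Nfatc1 fell by 1.12. Receptor chains and adaptors fell by smaller amounts, Cd3g by 0.94, Lat by 0.71 and Cd3e by 0.64 (adjusted p for Cd3e = 0.0482, and 0.054 without the low-Foxp3 array). Of the immediate early genes, 3 of 21 rose and 2 fell (background 5.36% and 8.7%). Fosl2, an AP-1 subunit, rose from 8.34 and 7.76 to 10.47 and 10.40, Ier3 rose by 2.06, and Myc, the growth factor-induced transcription factor, rose from 9.97 and 9.76 to 11.31 and 10.75. Egr2 and Btg2, restraints on T cell activation and division, fell by 1.46 and 1.89. Nfkbid, a nuclear regulator of NF-kB, fell from 10.28 and 10.09 to 8.16 and 8.24, alone among 16 genes of NF-kB feedback.

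Receptors and transducers of TGF-beta, a cytokine that supports Treg and CD103 expression, were lower in 8 of 18 cases and higher in 1. Tgfbr1 went from 11.09 and 11.37 to 9.50 and 9.41 (difference -1.78, SE 0.38, adjusted p = 0.0101), and Tgfbr2 from 10.74 and 10.60 to 9.53 and 9.25 (difference -1.28, SE 0.15, adjusted p = 0.000469). The transducer Smad3 fell by 1.04, and Smad2, Smad4, Ski, Smurf1 and Smurf2 fell as well. Ltbp3, a binding protein of latent TGF-beta, rose by 0.71 at an adjusted p of 0.0464, which was 0.0548 without the low-Foxp3 array.

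Among costimulatory and inhibitory receptors 6 of 23 fell (background 8.7%), namely Cd226, Cd96, Btla, Cd27, Cd5 and Cd6, the first 3 by 1.94, 1.64 and 1.46. Tnfrsf9 was the only one that rose. Of 17 genes of naive and central memory T cells 4 fell, with Klf3, a repressor of the Kruppel-like family, from 9.97 and 9.66 to 7.31 and 6.52, and Il6ra, Foxp1 and Foxo1 by 1.84, 1.43 and 0.65. Satb1, a chromatin organiser that is kept low in Treg, rose from 10.03 and 9.94 to 12.07 and 12.32 (difference 2.21, SE 0.24, adjusted p = 0.000279), and by 1.72 more than in double-negative cells (adjusted p = 0.043). Ahr, the aryl hydrocarbon receptor of mucosal T cells, fell from 11.19 and 10.95 to 8.99 and 8.21 (difference -2.46, adjusted p = 0.00121), with a change 2.78 log2 units below that of double-negative cells. The helper factors Bcl6 and the receptor Il18r1 fell by 1.72 and 1.69, and Gata3, the type 2 helper factor, differed by -0.11 (adjusted p = 0.875). The helper list counted 1 higher and 3 lower of 16, and 3 and 3 without the low-Foxp3 array.

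The Treg core list of 22 genes held 2 that rose and 2 that fell (background 5.36% and 8.7%), with a median of 0.03. These counts lie near the shares over all genes. Foxp3 differed by -0.30 (adjusted p = 0.879), Ctla4 by -0.09 (12.55 and 12.68 before, 12.54 and 12.52 after) and Il2ra, which encodes CD25 and was used in both sorts, by 0.68 (12.60 and 12.62 before, 13.09 and 13.48 after, adjusted p = 0.113, and 0.00605 without the low-Foxp3 array). Ecm1, an extracellular matrix protein, rose by 1.11 and Tnfrsf9 by 1.34. Nrp1, the semaphorin receptor neuropilin 1, fell from 10.47 and 10.91 to 8.48 and 8.25 (difference -2.33, SE 0.58, adjusted p = 0.0212), and Nt5e, the ectoenzyme CD73 that makes adenosine, by 1.89. Genes of the list of common-chain cytokine receptors and STAT5 feedback were mixed, with 2 of 17 higher and 3 lower. The signalling inhibitor Socs1 and the cytokine Osm rose. The receptor genes Il9r and Il15ra fell, and so did the kinase gene Jak1. Il9r fell from 10.67 and 10.14 to 8.59 and 8.12.

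Several PYHIN genes and Casp1 were among the 15 leading falls. Ifi213 (9.58 and 9.60 before, 6.78 and 6.70 after), Ifi208 and Ifi214, members of the PYHIN family of nucleic acid sensors, fell by 2.85, 3.18 and 3.05, and Casp1, the inflammasome protease, by 2.76. In double-negative cells these 4 genes differed by -3.96, -3.62, -3.71 and -0.86. In CD103 single-positive cells they differed by -3.62, -4.36, -3.66 and -1.79. The 3 PYHIN genes lie in a cluster of close relatives, so probes may read more than 1 of them. Of 23 genes of the interferon response 7 fell and none rose, among them Ifit3, from 8.45 and 9.09 to 6.02 and 6.02 (adjusted p = 0.000556). In double-negative cells 13 of the 23 fell (background 7.59%) and in CD103 single-positive cells 9 (background 10%). In ICOS single-positive cells none fell and 3 rose (background 1.03% higher). Lyz2, the lysozyme of macrophages, had the largest fall of all named genes, from 9.74 and 9.53 to 5.35 and 5.87 (difference -4.03, SE 0.76, adjusted p = 0.00542), and Lyz1 fell from 8.11 and 8.26 to 5.46 and 5.82. Cybb, an NADPH oxidase subunit of phagocytes and some lymphocytes, fell from 9.20 and 9.36 to 6.49 and 5.91. Of 19 myeloid and dendritic cell markers 3 fell (Lyz2, Lyz1 and Ctss), beside 8.7% of all genes. The list mean was 6.80 and 6.68 before and 6.22 and 6.36 after the assay. Lyz2 apart, the defining myeloid markers were near or below the array medians on all 4 arrays, with Csf1r at 5.57 to 6.51 and Cd14, Itgam and Itgax below the array medians. Fresh Lyz2 read 8.15 and 6.17 in double-negative, 9.32 and 7.03 in CD103 single-positive and 8.57 and 7.38 in ICOS single-positive cells. For Lyz2 and Csf1r replicate 1 was the higher in every fresh group, double-positive cells included. The part of myeloid cells in the fall of the lysozymes was not tested.

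Other large falls were Cd7, a T cell surface protein, from 10.66 and 10.85 to 8.03 and 6.72, Dtx1, a Notch regulator and anergy gene, from 11.69 and 11.30 to 8.31 and 8.20, and Klrb1f, a lectin-like receptor, by 3.34. Nr1d1, a repressor in the circadian clock, fell by 3.21, Ephx1, an epoxide hydrolase, by 3.33, Gbp2b, a guanylate-binding protein, by 3.19, and Nav2, a microtubule-binding protein, from 10.41 and 9.92 to 7.48 and 7.26. Both activated arrays lay below both fresh arrays for each of these genes, as they did for 24.8% of all genes. Of 11 B cell markers 1 rose and 1 fell (background 5.36% and 8.7%, here and for the marker lists that follow). These were Ebf1 (5.41 and 5.23 before, 8.26 and 8.45 after), a factor of early B cells, and Blk. Ms4a1, which encodes CD20, lay between 4.32 and 5.29, below the array medians. Of 13 markers of CD8 T and NK cells 1 rose (Gzma) and 2 fell, with the NK marker Ncr1 at 4.63 to 4.83. The CD8 marker Cd8b1 read 8.79 and 8.76 before and 8.90 and 8.96 after the assay, above the array medians. On the arrays of the other subsets Cd8b1 lay between 8.40 and 8.95. Cd8a lay between 6.09 and 6.56 on the double-positive arrays. The part of CD8 T cells in these signals was not tested. Of 9 erythroid and platelet markers 1 rose (Klf1, by 0.49).

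Genes whose change differed from that of another subset were few, 193 against double-negative (0.968%), 153 against CD103 single-positive (0.767%) and 122 against ICOS single-positive cells (0.612%). With the low-Foxp3 array left out, the counts were 52 higher and 252 lower, 54 higher and 170 lower, and 21 higher and 35 lower. In all, 14 genes passed all 3 differences, which share the double-positive arrays. Without the low-Foxp3 array 5 of them still passed all 3 (Abi3bp, Lum, Ptgdr2, Ripor2 and Slc27a6), and the other 9 lost the difference from ICOS single-positive cells. Lum was the one with a larger rise in all 3. Lum, which encodes the matrix proteoglycan lumican, went from 3.99 and 4.01 to 8.38 and 7.96 (difference 4.16, SE 0.31, adjusted p = 3.64e-05), while it differed by 0.68, 0.30 and 0.93 elsewhere. It is best known from fibroblasts. Of 9 other fibroblast genes, chosen after the Lum values were seen, 0 passed in limma, with differences from -0.14 to 0.31 and a lowest adjusted p of 0.127. The part of other cells in the Lum signal was not tested.

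Another group of the 14 fell in double-positive cells from fresh levels above those of the other subsets, with smaller differences there. Ptgdr2, the prostaglandin D2 receptor of type 2 cells, went from 8.87 and 8.62 to 6.26 and 6.31 (difference -2.46, SE 0.23, adjusted p = 0.000104), a level like that of every other group, which lay between 5.76 and 6.56. Abi3bp, a matrix-binding protein, went from 7.60 and 7.02 to 5.10 and 5.08, Nox1, an NADPH oxidase, from 7.61 and 7.82 to 5.27 and 5.39, and Serpinb1a, a protease inhibitor, from 7.66 and 7.96 to 5.88 and 5.68. Blk, a Src-family kinase, went from 8.66 and 8.43 to 6.54 and 6.17. For all 5 genes the activated double-positive arrays lay within the range of the other subsets, fresh and activated. Sdc1, Slamf1 and Slc27a6 fell by 1.19, 1.34 and 1.18. Ripor2 fell by 1.36, less than in the ICOS-negative subsets, beside a difference of 0.15 in ICOS single-positive cells. Cdca8, Chaf1a, Cks1b and Mybl2, cell-cycle genes, rose less than in the ICOS-negative subsets and more than in ICOS single-positive cells. The comparison with ICOS single-positive cells rests on a mean that includes the low-Foxp3 array, here and for the other genes of this paragraph.

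**Figure D5:**
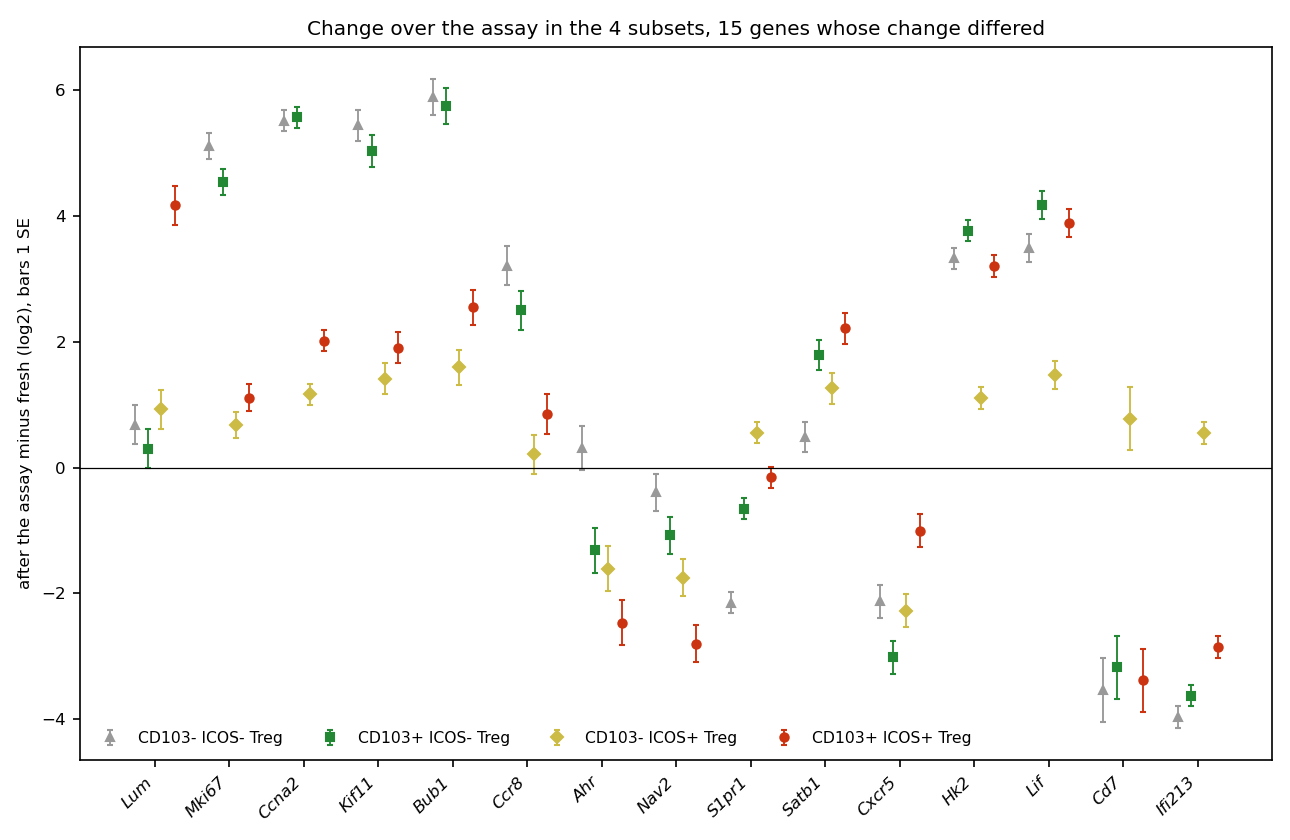
Activated minus fresh log2 difference of 15 genes in each of the 4 subsets (difference of 2 means of 2 arrays; error bars, SE of the limma fit). Lum differed by 4.16 in double-positive cells and by 0.30 to 0.93 elsewhere, Mki67 differed by 1.11 in double-positive and 0.67 in ICOS single-positive cells against 5.11 and 4.54 in the ICOS-negative subsets, and S1pr1 by -0.16 in double-positive against -2.15 in double-negative cells.

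For several genes the difference came with a fall elsewhere and low values in double-positive cells from the start. Gsta4, a glutathione transferase, was 5.68 and 6.16 before and 5.66 and 5.65 after the assay, beside differences of -2.49 and -2.32 in double-negative and CD103 single-positive cells. Arhgap20 and Sorcs2 differed by 0.21 and 0.29 in double-positive and by -2.43 and -2.08 in double-negative cells. Against ICOS single-positive cells the list of larger falls was led by Cd7 (-3.38 against 0.78) and by Ifi213 and Ifi214 (-2.85 against 0.55 and -3.05 against 0.69). The ICOS single-positive values are means over 2 arrays of which 1 is the low-Foxp3 array, and with that array left out 35 genes passed in this direction, against 72 with it. Ifi213 and Ifi214 then passed (adjusted p = 0.00391 and 0.0371) and Cd7 did not (-3.82, adjusted p = 0.098).

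Of the 2803 genes called in double-positive cells, 1743 (62.2%) were also called in double-negative cells with the same sign, which is 53.8% of the double-negative calls. For CD103 single-positive cells the shared genes were 2148, or 76.6% and 53.2%. For ICOS single-positive cells they were 289, or 10.3% and 69.3%, among 417 calls (2.09%) in that subset. Calls with opposite signs numbered 8, 1 and 7. The subsets share no array, but their errors come from 1 fit. The activated ICOS single-positive mean includes the low-Foxp3 array, which differed from its partner by more than 2-fold in 685 genes. The number of calls in that subset therefore does not show that it responded less.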

How the data were processed

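Signal was measured on Affymetrix mouse gene arrays. The deposited values are log2 intensities, 1 per probe set and array. The authors' processing used RMA and affy, per the submitters' processing notes, with versions and settings not given in the sources used here, and no second normalization was applied. Of 35556 probe sets, 21789 carry exactly 1 gene symbol, 1621 several and 12146 none. Those with 1 symbol were kept, and for the 999 genes with several probe sets the brightest over all arrays was used, leaving 19938 genes. Symbols of 21698 probe sets were checked against RefSeq's GRCm38.p6 annotation, and 0 changed.

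The test was limma 3.58.1 (R 4.3.3), 1 fit to 16 arrays with 8 group means, 8 residual and 2.9 prior degrees of freedom, and Benjamini-Hochberg adjustment over all genes. Differences between subsets were contrasts of 4 group means. The groups share 1 error estimate per gene. Nothing in the labels describes separate mice or cultures beyond the words biological replicate, so p-values measure the spread between these samples. Arrays carry no counting depth, and their number, 2 per group, limits the precision. The code was tested on simulated data.

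The 34 gene lists (683 genes, 629 measured, 8 matched by synonym, 52 not analysed here) and the comparison itself were chosen with earlier results of these data known. Lists are described by counts and medians, with no test of a list. Genes named are the 15 largest passing differences in each direction (5 for differences between subsets) with the same sign in both replicate numbers, without predicted, small RNA, histone and receptor segment genes, and list members. The effector reference set came from fresh ICOS single-positive against fresh double-negative arrays. Promoters were taken from a RefSeq table in which 15614 of the 19938 genes had an entry, the first listed where there were several. Alternatives were another normalization, centring, probe-set averaging, a filter on dim genes, moderated variance settings, array weights, a replicate block, only the compared groups, and each array left out.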

Additional observations from a re-analysis of the deposited data

Results flagged for a closer look

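The change after the assay differed between double-positive and double-negative cells for 193 genes by a test of the difference itself. The largest differences toward the double-positive cells were Lum 3.49, Arhgap20 2.64, Sorcs2 2.37, Gsta4 2.22 and S1pr1 1.99 log2 units, and the largest the other way were Mki67 -3.99, Kif11 -3.53, Ccna2 -3.49, Bub1 -3.34 and Top2a -3.18.

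Against CD103 single-positive cells the change differed for 153 genes, with Lum 3.86, Evl 2.48, Smpdl3a 2.12, Gsta4 2.05 and Cxcr5 2.01 on the side of the double-positive cells. On the other side were Ccna2 -3.55, Mki67 -3.43, Bub1 -3.20, Kif11 -3.13 and Ccnb2 -3.0. Evl, Smpdl3a and Cxcr5 had positive values because they fell further in CD103 single-positive cells.

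Against ICOS single-positive cells the count was 122, with Lum 3.24, Fabp5 2.64, Lif 2.42, Hk2 2.10 and Hey1 2.08 higher, and Cd7 -4.16, Ifi214 -3.73, Ifi213 -3.40, Trim12a -2.86 and Ifi206 -2.78 lower. This comparison includes the activated ICOS single-positive array with low Foxp3, and without it the count was 56. Cd7, Trim12a and Ifi206 did not pass then (adjusted p = 0.098, 0.0727 and 0.127).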

How the results depend on the processing

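The count of 2803 genes that changed in double-positive cells kept within 1.5 times under 7 of the 8 settings that keep all arrays of the comparison, and 2000 genes passed when the 2 groups were fitted alone. With a replicate block it was 4412, all 2803 among them. The labels do not say that a replicate number marks shared mice or days, so the numbers were not taken as pairs. Same-numbered arrays nevertheless deviate together by over 0.1 in 27 of 28 group pairs (correlations -0.016 to 0.752, and 0.133 for fresh with activated double-positive arrays), a hint from the data and not the design. Leaving out 1 array gave 1362 to 2948 genes. The difference from double-negative cells (193) ranged over 87 to 304 and was 425 with the block. It was 124 and 91 without the first and second fresh double-negative arrays, 87 and 96 without the second fresh and second activated double-positive arrays, and 304 without either activated ICOS single-positive array. That from CD103 single-positive cells (153) ranged over 61 to 224 and was 277 with the block. It was 61 without the second fresh double-positive array, 101 and 63 without the activated ones, 78 and 77 without the fresh CD103 single-positive arrays and 83 and 86 without the activated ones. That from ICOS single-positive cells (122) ranged from 3, when the first fresh array of the latter was left out, to 599 when its first activated array was. Its value was 56 without the other activated array and 14 without the other fresh one. Without single double-positive arrays it was 16, 15 and 74 (both fresh, second activated), and 62 to 81 without an array of fresh double-negative or of CD103 single-positive cells. It was 716 with the block, 261 after a second quantile normalization and 12 with only the compared groups. The 237 effector reference genes that rose became 413 with the block and ranged over 127 to 279. Of the 30 leading genes 27 passed under every setting tried, the exceptions being Ccl3, Gzma and Il5. Of 248 listed or leading genes that passed, 0 reversed. The median of all genes was 0.006 after quantile normalization and -0.039 after centring. These moved 2 and 4 list medians across 0, among them the Treg core, helper, interferon and NF-kB lists, whose medians lie near 0. The cause of these shifts was not tested.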
